A study of Mus musculus with 12 samples.

Results

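Tbp and Nono are a pair of genes whose protein products act in transcription in the nucleus, and their transcripts were followed across 4 brain regions of the adult mouse. Both are among 15 genes that the scanner files name by RefSeq accession, each printed as 1 probe in 20 copies on every array. The members are therefore 2 of the 60915 probes measured: Tbp (NM_013684.3, probe CUST_7_PI419532418) and Nono (NM_023144.2, probe CUST_11_PI419532418). They were taken by gene and not by a measured value.

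The study profiled messenger RNAs and long noncoding RNAs in the olfactory bulb, hypothalamus, hippocampus and cerebellum of male BALB/c mice aged 10 weeks. Each region had 3 scans of a 1-colour array, 12 scans in all, and there is no control region, so every comparison sets regions against each other. The labels do not tie an array to an animal, so a p-value here measures how arrays of a region spread, which may be technical. Regions were dissected whole, and in such tissue fewer cells of a type and less RNA per cell cannot be told apart.

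Tbp encodes the TATA-binding protein, which seats the general transcription machinery on promoters. It is the core of factor TFIID, which serves RNA polymerase II, and is also part of the factors that serve RNA polymerases I and III. Nono encodes an RNA- and DNA-binding protein of the Drosophila behaviour/human splicing family, with Sfpq and Pspc1 as its partners. It takes part in transcription and splicing and is a core protein of paraspeckles, nuclear bodies built on the long noncoding RNA Neat1. Neither is a marker of a brain cell type, and Tbp is widely used as a reference gene when transcripts are measured by PCR.

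The promoters of both genes are shown as a description only. The 100 bases before each annotated start were taken from RefSeq (GRCm38.p6, plus strand), for Tbp at chr17:15499788-15499887 and for Nono at chrX:101429460-101429559. Capitals mark the matches to the motifs searched.
Tbp: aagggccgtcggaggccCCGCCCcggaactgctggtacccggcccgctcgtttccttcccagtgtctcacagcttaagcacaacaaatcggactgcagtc
Nono: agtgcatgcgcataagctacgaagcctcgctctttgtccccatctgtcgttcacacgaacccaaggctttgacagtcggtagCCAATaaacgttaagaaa
The motifs, each searched on both strands, were the TATA box (TATAAA), the CCAAT box, the GC box (GGGCGG) and the ETS site (CCGGAAG), and none is contained in another. The Tbp stretch held 1 GGGCGG, on the minus strand, and none of the other motifs. The Nono stretch held 1 CCAAT and none of the others. Among 23200 RefSeq mouse promoters of the same length, 22.6% held GGGCGG, 19.9% CCAAT, 6.27% TATAAA and 4.12% CCGGAAG. GC content was 63.0% for Tbp and 49.0% for Nono, against a median of 53.0%, and the stretches held 8 and 7 CG dinucleotides, against a median of 2. These matches describe the letters and were not tested against the transcript levels.

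The arrays and their scans bear on every value below. The scans of replicates 1 and 3 were nearly identical in the hippocampus and in the cerebellum. Over 14991 bright probes the SD of their log2 difference was 0.0277 in the hippocampus and 0.0262 in the cerebellum. Both were under the limit used, 0.0308, which was taken from the spread of copies within scans. That limit is not the smallest copy spread, since the lowest copy SD of Gapdh on a scan was 0.0109. Every other pair of same-region scans had a value between 0.314 and 0.510. The near-identical scans were averaged as replicate 1 of their region, which left 10 arrays. The olfactory bulb and hypothalamus had 3 arrays each, and the hippocampus and cerebellum 2 each. Each of these 10 arrays correlated best with another array of its own region. Markers of the regions could not be checked, because the files used here pair their probes with no gene name. Each region always sat at the same slide position, so region and slide position cannot be told apart.

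Both transcripts were measured far above background in every region. The median processed signal of the 20 copies of Tbp on a scan, in intensity units, was 2685, 2216 and 2254 in the olfactory bulb. It was 1389, 1218 and 1289 in hypothalamus, 1472.5, 1226 and 1461 in hippocampus and 3062, 2782 and 2869 in the cerebellum. The 3 cerebellar scans were thus the brightest for Tbp and all 6 hypothalamic and hippocampal scans were dimmer than the olfactory bulb. For Nono the signal was 5481, 4893 and 4623 in the olfactory bulb, 3321, 3168 and 3165 in hypothalamus, 3310, 3056 and 3140 in hippocampus and 4786, 4547 and 4455 in the cerebellum. Nono was thus brightest on scans of the olfactory bulb and the cerebellum. All 20 copies of each gene were well above background and none was saturated on any of the 12 scans. The local background around the spots was 25.0 to 33.5 units for Tbp and 26.3 to 37.0 for Nono. Because probes differ in how brightly they report, the signal of Tbp is nowhere compared with the level of Nono, only the changes between regions.

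The overall brightness of the arrays differed between the same regions. The 75th percentile of log2 processed signal over all probes averaged 10.62 in the olfactory bulb, 10.56 in the cerebellum, 10.27 in the hippocampus and 10.13 in the hypothalamus. The brighter arrays were thus those of the 2 regions in which both unscaled transcripts were highest. Levels below are therefore given as log2 signal minus the 75th percentile of the same scan, with 0 at that percentile, and the other scalings follow.

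Tbp was highest in the cerebellum, followed by the olfactory bulb, and lower in hypothalamus and hippocampus. On the scaled log2 measure it was 1.03 and 0.81 in the cerebellum (mean 0.92 ± 0.16, SD, n = 2) and 0.68, 0.44 and 0.58 in the olfactory bulb (0.57 ± 0.12, n = 3). It was 0.30, 0.06 and 0.20 in the hypothalamus (0.19 ± 0.12, n = 3) and 0.24 and -0.04 in the hippocampus (0.10 ± 0.20, n = 2). Both cerebellar arrays lay above all 8 others, and the hypothalamic and hippocampal arrays overlapped. Of 56494 probes with a value on all 10 arrays, 11% had the cerebellum above every other array. The 4 regional levels of Tbp differed (limma moderated F test, adjusted p = 0.00759, Benjamini-Hochberg over 56573 probes), as did those of 36.1% of the probes tested. Tbp is thus 1 of a large share of probes that differed between regions. The regional means of Tbp spanned 0.82 on the log2 scale, or 1.77-fold, a wider span than that of 63.3% of probes, whose median span was 0.64.

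**Figure D1:**
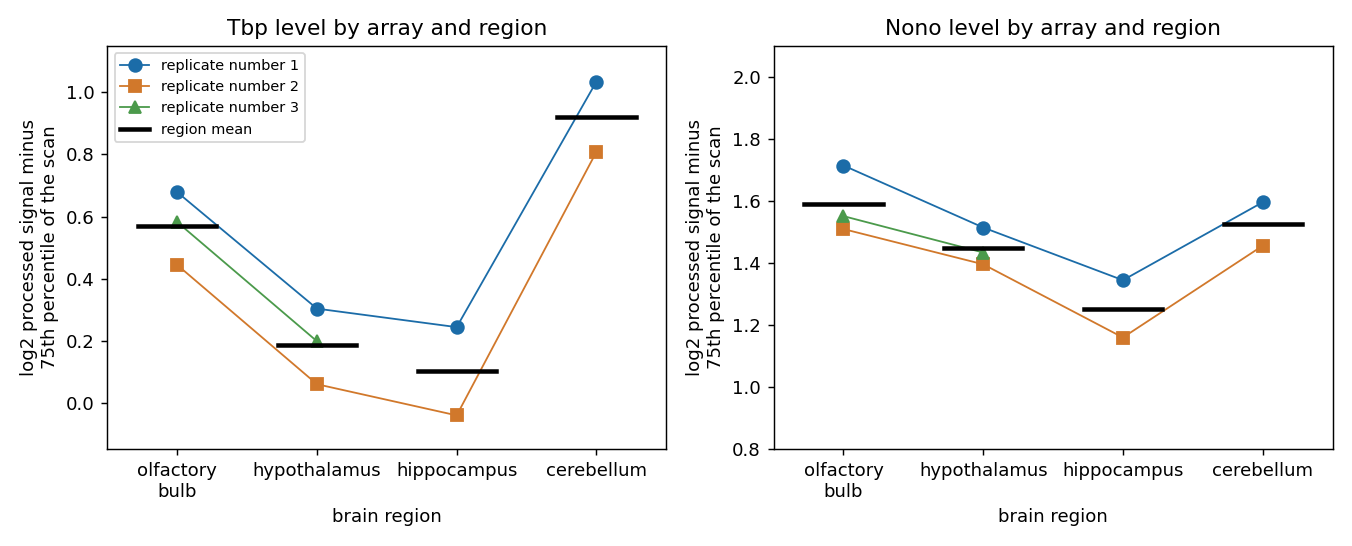
Level of Tbp (left) and Nono (right) on each of the 10 arrays, by brain region, in log2 units relative to the scan's 75th percentile. Symbols mark the replicate number, thin lines join arrays of 1 number, black bars are regional means, and both axes cover the same log2 range; Tbp ran from -0.04 to 1.03 with the cerebellum on top, and Nono from 1.16 to 1.71.

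Of the 6 pairs of regions, 3 differed in Tbp on this scale. The cerebellum exceeded the hippocampus by 1.77-fold (hippocampus minus cerebellum -0.82, SE 0.15, limma adjusted p = 0.00527), where 12.8% of probes were called in that direction and 23.3% in either. It exceeded the hypothalamus by 1.66-fold (hypothalamus minus cerebellum -0.73, SE 0.14, limma adjusted p = 0.00524), where 11.5% were called in that direction and 26.2% in either. The third call was close to the threshold: the olfactory bulb exceeded the hippocampus by 1.38-fold (0.47, SE 0.14, limma adjusted p = 0.0492, 13.5% called in that direction, 20.3% in either). That call was lost when any 1 of the 10 arrays was left out (adjusted p 0.0505 to 0.309), and under quantile normalization (0.0544) and cyclic loess (0.0667). Further losses came with the median of copies (limma adjusted p = 0.0514), dim probes kept in the test (0.0520) and the olfactory bulb and hippocampus fitted alone (0.142). Of all alternatives, single arrays left out included, 15 lost this call and 13 kept it. The cerebellum's difference from the hippocampus lost its call when the cerebellum and hippocampus were fitted alone (limma adjusted p = 0.0735). No pair reached a log2 difference of 1.

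The remaining pairs did not pass the test for Tbp on this scale. The olfactory bulb was 0.38 above the hypothalamus (SE 0.12, limma adjusted p = 0.0620, 23.4% of probes called in either direction) and 0.35 below the cerebellum (olfactory bulb minus cerebellum -0.35, SE 0.14, adjusted p = 0.123, 21.6% called). In both pairs the arrays did not overlap. Arrays of the pair failed to overlap in that direction for 19.7% of probes between olfactory bulb and hypothalamus and for 20.3% between olfactory bulb and cerebellum. Both calls depended on the scaling. Tbp in the olfactory bulb against the hypothalamus passed with the median of each scan (limma adjusted p = 0.0145), normexp (0.0438), the other named genes (0.00339) and no scaling (0.000374). Against the cerebellum it passed with the median of each scan (limma adjusted p = 0.0437) and the other named genes (0.00160). The hypothalamus and the hippocampus, neighbours at the bottom of the order, differed by 0.09 (SE 0.14, adjusted p = 0.814, 16.9% called), less than the spread within either region. Their order turned without scaling (-0.05), when scaled to the other named genes (-0.09) and without hippocampus replicate 2 (-0.06).

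Relative to the 75th percentile, differences in Tbp between regions were close to equal within each replicate number. Replicates 1, 2 and 3 had scan times of their own, save that replicate 1 of the hippocampus and of the cerebellum averages scans of scan times 1 and 4. Arrays of 1 number deviated together, and replicate 1 was above replicate 2 for Tbp in all 4 regions. The olfactory bulb exceeded the hypothalamus by 0.38 within each of the 3 numbers. The cerebellum exceeded the olfactory bulb by 0.36 within both numbers compared (olfactory bulb minus cerebellum -0.36 each time). Hippocampus minus cerebellum was -0.79 and -0.85, and hypothalamus minus cerebellum -0.73 and -0.75. Without scaling these differences were less even, with olfactory bulb minus hypothalamus at 0.92, 0.90 and 0.79 and olfactory bulb minus cerebellum at -0.19 and -0.34. With the replicate number as a block in the fit, all pairs but hypothalamus against hippocampus were called for Tbp, against 32.6% of probes called in that pair and 42.1% between hypothalamus and cerebellum. The olfactory bulb then differed from the hypothalamus (limma adjusted p = 0.000465, 41.4% of probes called) and from the cerebellum (adjusted p = 0.00119, 36.2% called). Over the 4 regions the block gave a limma adjusted p of 8.52e-05 for Tbp, with 54% of probes called.

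Nono varied less between regions and had its highest mean in the olfactory bulb, where the arrays overlapped those of the cerebellum. It was 1.71, 1.51 and 1.55 in the olfactory bulb (mean 1.59 ± 0.11, SD, n = 3) and 1.60 and 1.46 in the cerebellum (1.53 ± 0.10, n = 2). It was 1.51, 1.40 and 1.43 in the hypothalamus (1.45 ± 0.06, n = 3) and 1.34 and 1.16 in the hippocampus (1.25 ± 0.13, n = 2). Both hippocampal arrays lay below all others, a pattern shown by 8.31% of probes, while the other 3 regions overlapped each other. The regional means spanned 0.34 on the log2 scale, or 1.27-fold, and 20.2% of probes had a smaller span. The 4 regional levels did not pass the test (limma adjusted p = 0.158, against 36.1% of probes called).

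The Nono result depended on the replicate block and on the scaling. With the replicate number as a block the regions differed (limma adjusted p = 0.00445, 54% of probes called). Under it the hippocampus was below the olfactory bulb by 0.35 (limma adjusted p = 0.00205, 37.3% of probes called), below the cerebellum by 0.27 (hippocampus minus cerebellum -0.27, adjusted p = 0.00529, 41.6% called) and below the hypothalamus by 0.21 (adjusted p = 0.0155, 32.6% called). The olfactory bulb was 0.14 above the hypothalamus (adjusted p = 0.0265, 41.4% called). Without the block, on the 75th percentile scale, none of the 6 pairs was called for Nono, and the smallest limma adjusted p was 0.0666, for the olfactory bulb against the hippocampus (0.34, SE 0.11). Of the other pairs, hippocampus minus cerebellum was -0.27 (adjusted p = 0.157) and hypothalamus minus hippocampus 0.20 (0.330). Under other settings without the block, the olfactory bulb against the hippocampus passed with the median of each scan (limma adjusted p = 0.0233), normexp (0.0468), the other named genes (0.0417), no scaling (0.00131), a trended robust spread (0.0471) and 12 scans counted separately (0.0227). The olfactory bulb against the hypothalamus passed with no scaling (limma adjusted p = 0.000868) and the other named genes (0.0364), and so did the hippocampus against the cerebellum (0.00594 and 0.00536), which also passed with 12 scans (0.0363). The setting with 12 scans enters the near-identical hippocampal and cerebellar scans as separate arrays, so its p-values rest partly on repeated readings. No share of probes called in these pairs is given for those settings, and without scaling 55.3% of probes were called over the 4 regions. Within single replicate numbers, on the 75th percentile scale, the olfactory bulb exceeded the hippocampus in Nono by 0.37 and 0.35, and the cerebellum exceeded the hippocampus by amounts of 0.25 and 0.30 (hippocampus minus cerebellum -0.25 and -0.30). In olfactory bulb replicate 1, 3 Nono copies were left out as outliers. At the 17 places kept, its difference from the hippocampal scan of the same scan time was 0.32, not 0.37.

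The top of the Nono order was not resolved. The olfactory bulb was 0.07 above the cerebellum (SE 0.11, limma adjusted p = 0.732), and without cerebellum replicate 2 the difference was -0.0042. The hypothalamus lay 0.08 below the cerebellum (hypothalamus minus cerebellum -0.08, SE 0.11, adjusted p = 0.687). That pair passed with no scaling (-0.51, limma adjusted p = 0.00530) and the other named genes (-0.35, 0.00408), and shrank to -0.0076 without cerebellum replicate 1. No share of probes called in the pair is given for those scalings. In replicates 1 and 2 the olfactory bulb exceeded the cerebellum by 0.12 and 0.05. In replicate 1 of the olfactory bulb 3 Nono copies were left out as outliers, and over the 17 places with a copy on both arrays the difference was 0.06.

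The scaling between arrays set the size of the regional differences more than their order for Tbp. Quantile normalization gave Tbp a span of 0.83, the median of each scan 0.79, normexp background correction 0.80 and cyclic loess 0.78. Without scaling the span was 1.17, or 2.24-fold, and the mean log2 signals were 11.48 in the cerebellum, 11.18 in the olfactory bulb, 10.37 in the hippocampus and 10.32 in the hypothalamus. Scaled to the mean of the 13 other named genes the span was 1.01. That mean is itself not level between regions. Unscaled, olfactory bulb minus cerebellum was 0.27 for it and 0.06 for the 75th percentile. Scaling to it thus raises the cerebellum against the olfactory bulb for any probe, compared with the 75th percentile scale. The cerebellum was highest and the olfactory bulb second under each of these 7 scalings. For Nono the same scalings gave spans of 0.33 (quantile), 0.31 (median), 0.34 (normexp), 0.28 (cyclic loess), 0.69 or 1.61-fold (no scaling) and 0.38 (other named genes). Nono was highest in the olfactory bulb under 6 of them, but scaled to the other named genes the cerebellum was on top (olfactory bulb minus cerebellum -0.15). Nono passed the test over regions without scaling (limma adjusted p = 0.00111, 55.3% of probes called) and against the other named genes (0.00692), and missed it under the other 5 (36.6% of probes called under quantile normalization).

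**Figure D2:**
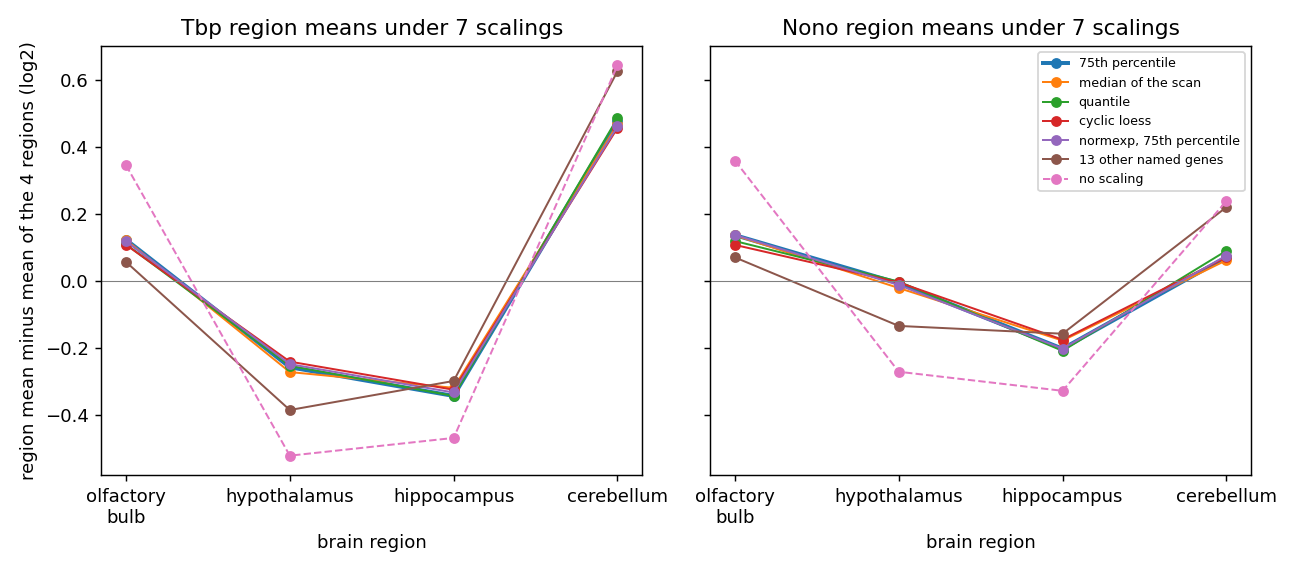
Regional means of Tbp (left) and Nono (right) under 7 scalings between arrays, each drawn as the log2 difference from the mean of the 4 regions. Lines of a colour join the regions under 1 scaling and the dashed line is unscaled signal; Tbp spanned 0.78 to 1.17 and Nono 0.28 to 0.69.

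Within an array, the difference between both genes does not depend on a constant that scales the array. Tbp minus Nono, in log2 units, was -0.56 and -0.65 in the cerebellum (mean -0.60 ± 0.06, SD, n = 2) and -1.04, -1.07 and -0.97 in the olfactory bulb (-1.02 ± 0.05, n = 3). It was -1.10 and -1.20 in the hippocampus (-1.15 ± 0.07, n = 2) and -1.21, -1.34 and -1.24 in the hypothalamus (-1.26 ± 0.07, n = 3). Both cerebellar arrays lay above all others, also under the alternatives of scaling, background, copies and position. The other regions did not overlap in these values, but the hippocampus overlapped the hypothalamus under cyclic loess, tile correction and the median of copies, and the olfactory bulb under the last. The regional means spanned 0.66, or 1.58-fold, and differed by an exact permutation test of F (p = 0.000317, 8 of 25200 arrangements of the 10 arrays, two-sided in effect since F has no direction; smallest possible p 0.00016). Permuting within replicate numbers alone gave an exact permutation p of 0.00694 (8 of 1152 arrangements). Tbp and Nono thus changed unequally between regions, which says nothing on whether either stayed level. How many other pairs of probes change unequally, or separate the regions in this way, was not counted. Since 36.1% of single probes differed between regions in the limma test, the result is not shown to be particular to this pair.

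**Figure D3:**
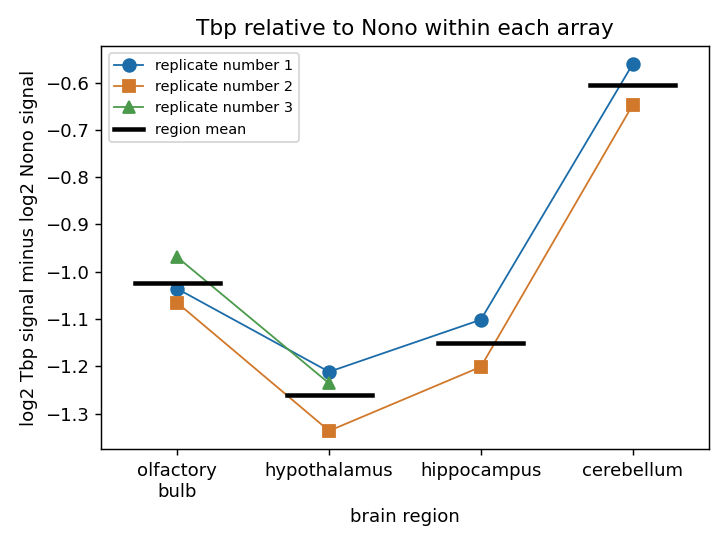
Log2 Tbp signal minus log2 Nono signal on each of the 10 arrays, by brain region. Symbols mark the replicate number, thin lines join arrays of 1 number and black bars are regional means; both cerebellar arrays (-0.56 and -0.65) lay above all others, which ran from -1.34 to -0.97.

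The 20 copies of each probe, printed at the same places on every array, give the regional order place by place. They are repeated readings of 1 sample and add no replicate. The places were counted for Tbp and Nono only, so whether such counts are unusual among the named genes is not shown. For Tbp the cerebellum was brighter than each other region, relative to the 75th percentile, at 20 of 20 places in each replicate number compared. The olfactory bulb was brighter than the hypothalamus and the hippocampus at 20 of 20. The hypothalamus was above the hippocampus at 18 and 19 of 20, although the means of the arrays did not separate. For Nono the hippocampus was below the olfactory bulb at 16 of 17 and 20 of 20 places, below the cerebellum at 19 and 20 of 20 and below the hypothalamus at 19 and 20 of 20. The olfactory bulb was above the cerebellum in Nono at 14 of 17 and 14 of 20 places only.

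Copies differed with their place on the array. On the 12 scans the SD of the copies was 0.0786 to 0.187 on the log2 scale for Tbp (median 0.150) and 0.111 to 0.256 for Nono (median 0.166). By median copy SD, Nono ranked 2 and Tbp 4 of the 15 named genes. Tbp copies in the lowest-numbered columns (6 copies, columns 2 to 38) were dimmer than the 10 in the middle columns on 12 of 12 scans, with a median gap of -0.24, against -0.05 for the 4 at columns 156 to 163, which were dimmer on 11 of 12 scans. For Nono the 3 copies at columns 22 to 38 were dimmer than the middle ones on all 11 scans where they were used (median gap -0.32), while the 7 at columns 137 to 146 were brighter on 11 of 12 scans (median gap 0.07). The copy SD of Tbp was 0.0786 to 0.0935 on cerebellar scans against 0.143 to 0.187 on all others. Of the Nono copies, 3 were marked as outliers by the scanner software, all on olfactory bulb replicate 1 and at columns 22 to 38, and were left out; no Tbp copy was. With the 10 middle copies alone, an alternative chosen after the data were seen, the limma adjusted p over regions was 0.00789 for Tbp and 0.162 for Nono.

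**Figure D4:**
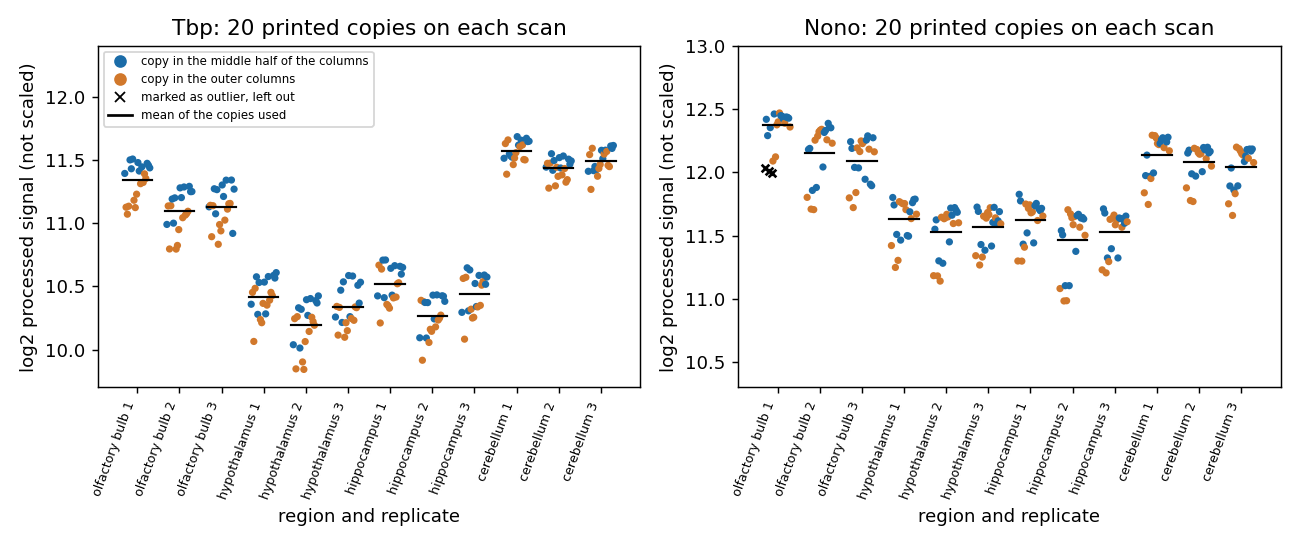
Log2 processed signal, not scaled, of the 20 printed copies of Tbp (left) and Nono (right) on each of the 12 scans. Blue points are copies in the array's middle columns, orange points copies in the outer columns, crosses the 3 Nono copies marked as outliers, and bars the means of the copies used; both axes cover the same log2 range.

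Among the other named genes, those whose levels over the 10 arrays, on the 75th percentile scale, were most like Tbp were Nono (r = 0.74), G6pd2 (0.71), a near-identical copy of G6pdx, which encodes the first enzyme of the pentose phosphate pathway and which its probe may not tell apart, and Gusb (0.30), the lysosomal enzyme beta-glucuronidase. Those most like Nono on this scale were Gusb (0.82), Tbp (0.74) and B2m (0.46), which encodes the invariant chain of class I histocompatibility molecules. These coefficients describe 10 arrays that share scan times and a scaling. Unscaled, Tbp and Nono had r = 0.93, but unscaled values also carry the overall brightness of each array. Unscaled r with Tbp was 0.88 for G6pd2, 0.84 for Gapdh and 0.84 for Tfrc. It was negative only for Actb (-0.43), Hprt (-0.39) and Tuba1b (-0.25). The order depended on the scaling: after quantile normalization Ppia, cyclophilin A, was most like Tbp (r = 0.88, against -0.55 on the 75th percentile scale), and for Nono Ppia (0.70) stood above B2m (0.40). The gene named B2m was highest in the olfactory bulb and lowest in the cerebellum, unlike Tbp, whereas G6pd2 was highest in the cerebellum and lowest in the hippocampus, as was Tbp. Of 50246 probes with array-design names that were well above background throughout, ASMM10P009247 and ASMM10P010594 were most like Tbp (both r = 0.994). ASMM10P028250 (r = 0.990) and ASMM10P016676 (0.989) were most like Nono. ASMM10P009247 averaged 1.29 in the cerebellum, 1.01 in the olfactory bulb, then 0.68 (hypothalamus) and 0.64 (hippocampus), the order seen for Tbp. Because this probe and G6pd2 were chosen for their likeness to Tbp on the same arrays, a regional order shared with Tbp is no separate result. The files do not pair these probes with genes.

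Tbp ranked 5 and Nono 11 of the 15 named genes by span between regions. The widest span was that of Ldhal6b, a lactate dehydrogenase-like gene (1.38), and the narrowest that of Tfrc, the transferrin receptor (0.14). Actb, cytoplasmic beta-actin, spanned 1.07 in nearly the opposite order to Tbp, with the hippocampus highest and the cerebellum lowest (r with Tbp -0.88 over the 10 arrays, chosen after its values were seen). Other genes of the general transcription machinery and of paraspeckles, such as Taf1, Polr2a, Sfpq and Neat1, are not described because no file used here names a probe for them.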

How the data were processed

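RNA of dissected regions was depleted of ribosomal RNA and labelled with Cy3 by random priming, per the labels' protocols. The authors used Agilent Feature Extraction 11.0.1.1, per the submitters' processing notes. Spot intensity in the deposited files is a processed signal, background-subtracted per the file headers, beside a median signal and background. The authors' deposited value table (60804 probes, log2 scale) holds neither gene and entered only as an alternative for the count of differing probes.

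From log2 processed signal the scan's 75th percentile was subtracted, with outlier-marked spots left out and copies averaged. Tested were the 56573 probes that exceeded background clearly on every scan of a region (51372 did so throughout). The fit (limma 3.58.1 under R 4.3.3) had 1 mean per region, a shared spread and 6 residual degrees of freedom, with Benjamini-Hochberg adjustment over all probes and a threshold of 0.05. Near-identical scans were averaged and counted once. The code was tested on simulated data.

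Replicates 1 and 2 had scan times 1 and 2. Replicate 3 of the olfactory bulb and hypothalamus had scan time 3, and that of the hippocampus and cerebellum scan time 4, counted with replicate 1. Deviations from regional means of same-numbered arrays correlated at r = 0.125 to 0.757 over 13 pairs, all over 0.1, which are not independent of each other. The fit reported leaves this pairing out. It enters only where the replicate number is named as a block and where differences are given within replicate numbers. The labels do not say whether they also follow animals.

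Both genes are always named; the others are the 3 named genes and 2 array-design probes with the highest r to each. The members, lists and alternatives were chosen with earlier results of these data known. Of the listed transcription, paraspeckle and marker genes, none but the named reference genes has a named probe here. Normexp (offset 50) used the median spot signal. The number of arrays limits the precision.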

Additional observations from a re-analysis of the deposited data

Results flagged for a closer look

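Of 15 control probes named as negative, which were part of no comparison, 2 were well above background on all 12 scans. Their processed signals ran from 93.1 to 186 units for MM9NEGATIVE017 and from 52.3 to 114 for MM9NEGATIVE016. The dimmest median signal of Tbp on a scan was 1218 units and that of Nono 3056.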

How the results depend on the processing

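Tbp differed between regions under all alternatives run (limma adjusted p 3.21e-05 to 0.0108), and when single arrays were left out (0.00947 to 0.0388). Nono missed the threshold when single arrays were left out (0.166 to 0.496) and passed it without scaling (0.00111), scaled to the other named genes (0.00692), with the replicate block (0.00445), with the replicate number as a random block (0.00352) and with 12 scans counted separately (0.0489). Tbp minus Nono kept its exact permutation p under the threshold in each alternative (6.49e-05, the smallest that 12 scans can give, to 0.00694; single arrays left out, 0.000794 to 0.00397). Counting 12 scans separately enters near-identical scans as separate arrays, so the p-values of that setting rest partly on repeated readings. The count of probes that differed was 20407 in the fit reported, 31289 without scaling, 31633 with the random block, 30539 with the replicate block and 17152 to 19916 with single arrays left out. Signs turned for Tbp between hypothalamus and hippocampus without scaling (-0.053) and scaled to the other named genes (-0.087; single arrays left out, -0.057 without hippocampus replicate 2 to 0.23), and for Nono between olfactory bulb and cerebellum scaled to the other named genes (-0.15; single arrays left out, -0.0042 to 0.14). The cause was not tested. The authors' value table could not be run for either gene, as it holds neither probe. The hippocampus and the cerebellum have 2 arrays each, which limits the precision of their means.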
